A study of Mus musculus with 23 samples.

Results

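The genes described here are 32 genes of glycolysis and of the response to low oxygen, read over 23 arrays of mouse epiblast-like cells. They were taken from a list of gene names, and for each gene the probe set of highest mean signal stands for it. Of the 32 listed genes 30 have a probe set that names the gene alone, and Gpi1 and Eno1 are not analysed here. All 30 passed the filter on dim genes, a signal above the median of the array on at least 3 of 23 arrays, which kept 13258 of 18194 named genes. Vegfa passed it narrowly, on 8 arrays and with a signal between 16.1 and 56.9, and Ndrg1 was above the array median on 19.

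Epiblast-like cells are a culture model of the epiblast just before gastrulation, and here they came from male C57BL/6 embryonic stem cells that carry a Blimp1 reporter transgene (BV), in 1 line with intact Wnt3 (+/+, called WT) and 1 line without it (-/-, called KO). Cells at 0 h were followed by floating aggregates in medium with serum replacement, sodium pyruvate and leukemia inhibitory factor, which all groups received, for 12, 24 and 36 h. The aggregates had no added cytokine, BMP4 at 500 ng/ml or WNT3A at 50 ng/ml, and KO aggregates also had both, with 1 array for each genotype, condition and time. For 6 KO arrays the sample title and the description name disagree on whether WNT3A was given alone or with BMP4. They are called by their titles, "titled WNT3A" and "titled BMP4+WNT3A", and the mean of both against KO aggregates without cytokine does not depend on which label is right. Id1, which BMP signalling induces directly, had a signal of 5480, 7591 and 9345 from 12 to 36 h on the arrays titled WNT3A and 186, 256 and 1323 on those titled BMP4+WNT3A, which goes against the titles. A difference between conditions is a mean over 3 times and a difference between 36 and 12 h a mean over 7 conditions, each with the standard error of the model, on the log2(signal + 16) scale, which understates changes of dim genes. Times take the place of replicates, and the model removes the change over time that all conditions share. A p-value between conditions thus sets a difference against how unevenly the 7 conditions moved over time within 1 series of cultures. Genotype cannot be told apart from the line that carries it.

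Glycolysis turns glucose into pyruvate in the cytosol, and lactate dehydrogenase turns pyruvate into lactate, which leaves the cell through monocarboxylate transporters. When oxygen is scarce, the prolyl hydroxylases of the Egln family no longer mark the HIF alpha subunits for destruction, and HIF raises the genes of glucose uptake, of nearly every glycolytic step and of the kinases that keep pyruvate out of the mitochondria. Primed pluripotent cells of the epiblast are known for a strongly glycolytic metabolism. HIF binds a short DNA core, ACGTG or GCGTG, so the promoters of 4 genes that passed the test with a cytokine are shown first.

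The 250 bases before the annotated start are given 5′ to 3′ on the strand of the gene, from RefSeq on GRCm38.p6, with each ACGTG or GCGTG, on either strand, in capitals. The window of Slc2a1 lies at chr4:119108495-119108744 on the plus strand, that of Ldhb at chr6:142507958-142508207, that of Bnip3 at chr7:138909507-138909756 and that of Ddit4 at chr10:59951771-59952020, these on the minus strand.
Slc2a1: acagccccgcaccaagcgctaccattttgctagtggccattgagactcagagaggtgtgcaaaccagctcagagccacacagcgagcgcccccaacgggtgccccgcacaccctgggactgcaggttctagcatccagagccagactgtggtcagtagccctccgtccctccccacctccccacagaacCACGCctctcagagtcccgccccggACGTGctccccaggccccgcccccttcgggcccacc
Ldhb: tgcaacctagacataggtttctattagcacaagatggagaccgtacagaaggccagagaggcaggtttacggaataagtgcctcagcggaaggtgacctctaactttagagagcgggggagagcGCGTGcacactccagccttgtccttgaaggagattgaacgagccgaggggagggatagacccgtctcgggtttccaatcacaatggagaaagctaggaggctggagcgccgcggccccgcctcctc
Bnip3: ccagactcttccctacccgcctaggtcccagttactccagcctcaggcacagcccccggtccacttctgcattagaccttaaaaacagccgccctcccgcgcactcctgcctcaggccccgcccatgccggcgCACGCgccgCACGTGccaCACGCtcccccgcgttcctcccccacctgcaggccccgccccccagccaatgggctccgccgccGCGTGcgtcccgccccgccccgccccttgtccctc
Ddit4: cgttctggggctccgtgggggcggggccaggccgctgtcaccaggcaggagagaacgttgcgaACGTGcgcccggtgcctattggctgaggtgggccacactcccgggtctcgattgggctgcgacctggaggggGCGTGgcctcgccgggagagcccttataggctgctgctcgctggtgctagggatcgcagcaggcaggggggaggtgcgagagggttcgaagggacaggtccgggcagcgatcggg
Bnip3 held 5 matches, Slc2a1 and Ddit4 held 2 each and Ldhb held 1. In Bnip3 the 5 matches begin between -117 and -35 from the start, and those at -108 and -107 are both strands of 1 CACGTG. Over the 28 measured genes with a window 92.9% held either motif, against 60% of the 10693 kept genes with a window and 41.5% of all 27025 genes in the table. A gene was counted if any of its windows held a match, and some genes have several. By window the share was 79.5% of 44 windows of the listed genes and 38.6% of all 32851 windows. For ACGTG alone the share was 64.3% of the measured genes and 24.8% of the kept genes. The median window held 14 CG pairs among the members and 15 among the kept genes. These are matches of letters, and binding was not measured. Slc2a3 and Ndrg1 have no window in the table.

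**Figure D1:**
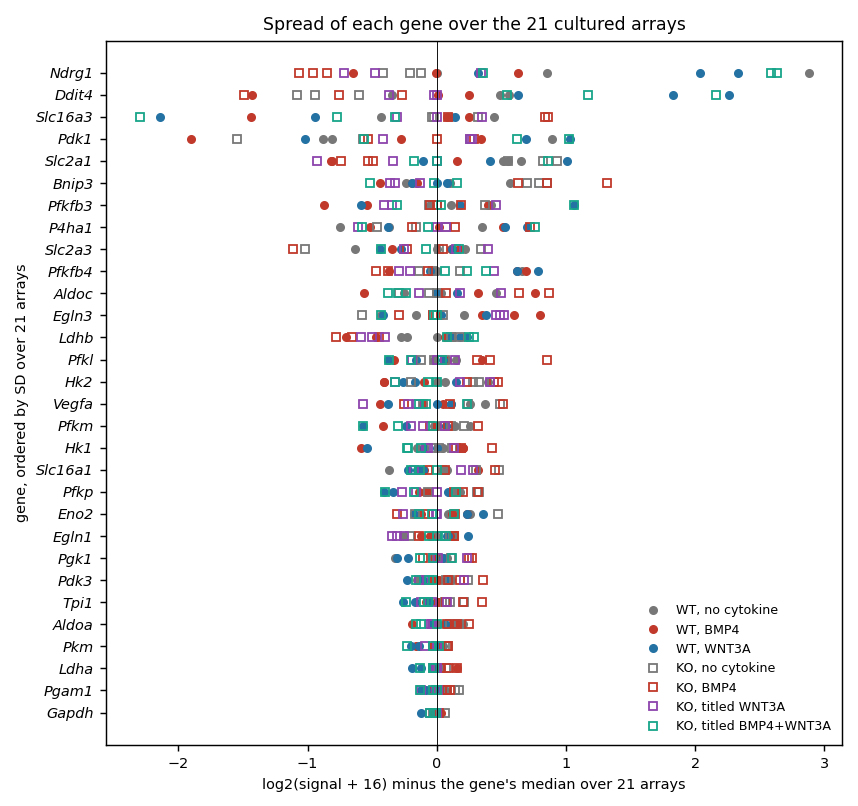
Each point is 1 of 21 arrays at 12, 24 or 36 h, placed by log2(signal + 16) after normalization minus the median of that gene, with genes ordered from the narrowest at the bottom to the widest at the top and colours and symbols for the 7 conditions. Gapdh, Pgam1, Ldha and Pkm stay close to the line at 0, while Ndrg1 and Ddit4 spread over more than 3 log2 units.

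Several enzymes of the main glycolytic route had a narrow spread of signal. Over the 21 arrays the SD of the log2 signal was 0.04 for Gapdh, 0.08 for Pgam1 and Ldha, 0.09 for Pkm, 0.12 for Aldoa, 0.15 for Tpi1 and 0.16 for Pgk1. The signal ranged from 11829 to 13494 for Gapdh, from 9541 to 12246 for Ldha and from 7804 to 9476 for Pkm. The highest signal of any probe set on an array was between 16613 and 18433, so these probe sets read near the top of the range, and a bright probe set can respond less than the RNA does. The widest spread was that of Ndrg1 and Ddit4. The SD was 1.28 for Ndrg1, 1.07 for Ddit4, 0.85 for the lactate exporter gene Slc16a3, 0.82 for Pdk1, 0.64 for Slc2a1 and 0.52 for Bnip3. The median SD was 0.29 for the 30 genes and 0.22 for all kept genes. Between pairs of members the median correlation over the 21 arrays was 0.10, with 23 of 435 pairs above 0.7 and 48 below -0.5. These arrays share their cultures and controls, so the correlations are only a description. The closest pairs were Pkm and Slc16a3 at 0.91 and Pfkm and Slc16a3 at 0.90, and the most opposed was Ldha and Ddit4 at -0.76.

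Calls among the members were few with each cytokine. A gene was called at an adjusted p under 0.05 in limma, with Benjamini-Hochberg adjustment over all 13258 genes. BMP4 in WT called 1 of 30 members higher and 1 lower, where 1.45% of all genes were called higher and 2.02% lower. WNT3A in WT called no member at a background of 0.272% in either direction, with 8 members and 1851 genes under an unadjusted p of 0.05. BMP4 in KO called none higher and 2 lower, at 0.249% and 0.324% of all genes. The share of the 2 lower calls is above that background, but the members were chosen with earlier results of these data known. All counts with BMP4 in either line or with WNT3A in WT are too small to read against their background. KO arrays titled WNT3A had 1 member higher and 3 lower than KO without cytokine (4.03% and 5.53% of all genes), and those titled BMP4+WNT3A had 2 higher and 3 lower (3.04% and 3.79%). Over both WNT3A-containing groups of KO 1 member was higher and 4 lower, at a background of 4.95% and 6.63%, and the median difference was -0.12 for the members and -0.02 for all genes. Under an unadjusted p of 0.05 were 15 members and 3397 genes in that comparison, 14 members and 2765 genes for titled BMP4+WNT3A and 10 members and 3061 genes for titled WNT3A. Under the same limit were 4 members and 2261 genes with BMP4 in WT, and 5 members and 1421 genes with BMP4 in KO. Set against each other, the arrays titled BMP4+WNT3A exceeded those titled WNT3A in 1 member and were below in none (0.143% and 0.196% of all genes). These comparisons share the arrays without cytokine, so calls that recur between them are not independent.

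Genotype called no member without cytokine, at 0.0377% of all genes higher and 0.0754% lower in KO, with 6 members and 1633 genes under an unadjusted p of 0.05. With BMP4, KO exceeded WT in 2 members and was below it in 1 (4.32% and 2.96% of all genes). The test of the difference between the BMP4 responses of both lines called no member and no gene (0% in either direction), with 3 members and 783 genes under an unadjusted p of 0.05. Time had the most calls, 7 members higher and 4 lower at 36 h than at 12 h, among 17.9% and 20.8% of all genes.

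**Figure D2:**
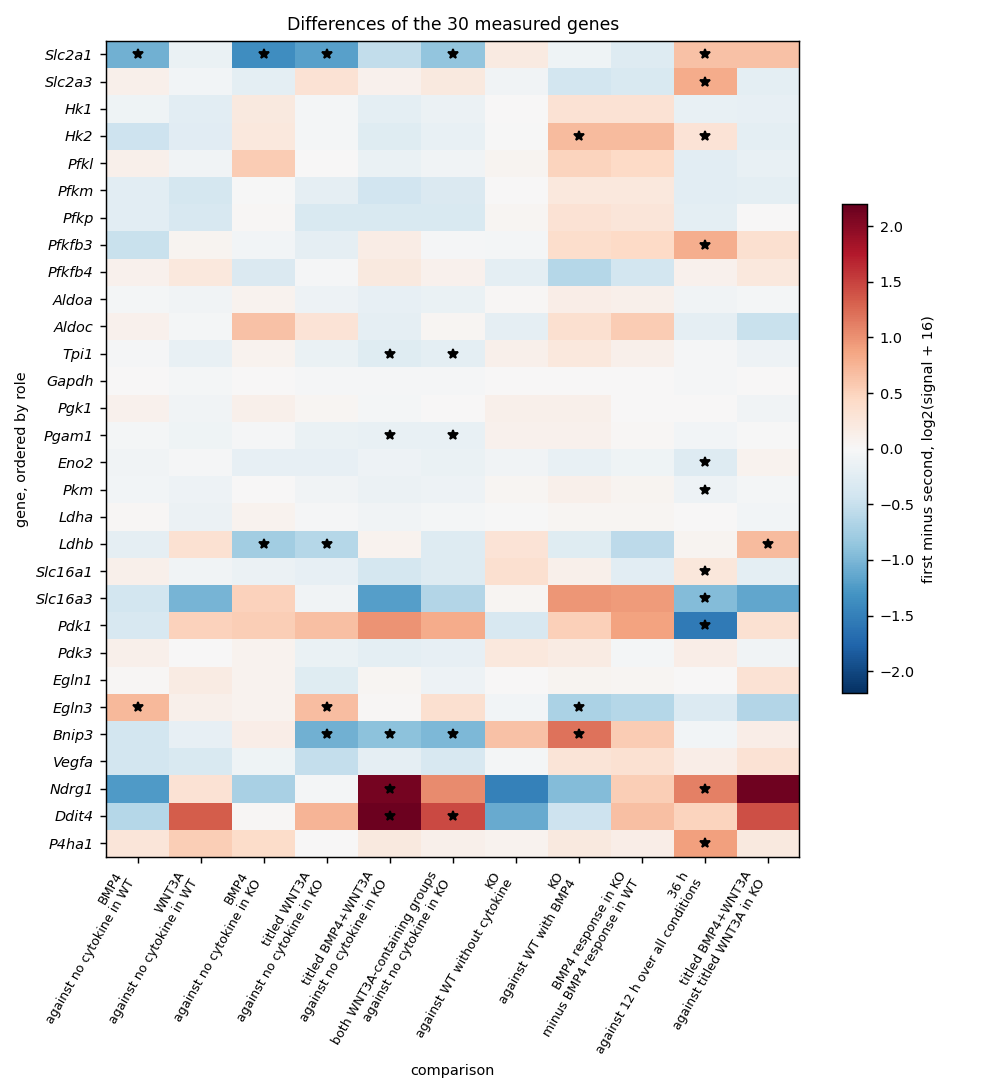
The colour of each cell is the difference of 1 gene in 1 comparison on the log2(signal + 16) scale, red where the first group is higher and blue where it is lower, and a star marks a call at an adjusted p under 0.05. Most cells are pale, the row of Slc2a1 is blue and starred in 4 cytokine comparisons, and the column of time holds 11 stars.

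Markers of cell identity differed between some of the groups. The summed signal of 12 markers of mesoderm and primitive streak lay between 343 and 4283 in WT without cytokine, 2142 and 15208 in WT with BMP4, 1830 and 8755 in WT with WNT3A, 267 and 336 in KO without cytokine and 322 and 426 in KO with BMP4. It lay between 1955 and 5407 on KO arrays titled WNT3A and between 1724 and 6422 on those titled BMP4+WNT3A. The 7 markers of epiblast-like cells summed to between 25183 and 31827 in WT without cytokine and between 15086 and 23721 with BMP4. In KO they summed to between 30428 and 34174 without cytokine, 29590 and 31655 with BMP4, 20175 and 24263 on arrays titled WNT3A and 16907 and 26065 on those titled BMP4+WNT3A. No marker of either list stood at the floor of 1 on every array of a group. Of the 11 streak markers tested 1 was higher with BMP4 in WT, none with BMP4 in KO and 4 in the mean of the WNT3A-containing groups of KO, and of the 7 epiblast markers 2, none and 4 were lower. With BMP4 in KO 2 markers of other lists did pass, Dcn of 4 tested fibroblast markers at -2.14 ± 0.34 (adjusted p = 0.00680) and Ascl2 of 5 tested trophoblast markers at 0.88 ± 0.19 (adjusted p = 0.0422). In the mean of the WNT3A-containing groups Sox1, Pax6 and Tubb3 of 5 neural markers were lower, by differences of -1.77, -1.66 and -2.64. Of 5 naive stem cell markers Esrrb (1.72) and Zfp42 (0.64) were higher and Nr0b1 (-0.81) was lower, and Dcn was at -2.47 and Ascl2 at 0.54. From 12 to 36 h 8 of the 11 streak markers were higher and 4 of the 7 epiblast markers lower. Each array reads a whole culture, so a change in the share of a cell type and a change of RNA per cell cannot be told apart, and the part of cell identity in the differences below was not tested. The Gapdh 3′ to 5′ ratio, a sign of RNA quality, was 4.03 in the 24 h WT culture with WNT3A, 2.68 in the 24 h KO culture without cytokine, 2.30 in the 36 h WT culture without cytokine and between 1.09 and 1.71 elsewhere. The same ratio for Actb was 7.21, 8.51 and 7.78 on these 3 arrays. It lay between 5.58 and 8.75 over all arrays, so it did not set the 3 apart.

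Slc2a1 encodes GLUT1, the widespread transporter that brings glucose into the cell. Its signal in WT was 6562, 7132 and 6700 at 12, 24 and 36 h without cytokine, 2435, 2521 and 5185 with BMP4, and 4182, 5955 and 9476 with WNT3A. In KO it was 6517, 8192 and 8903 without cytokine, 2998, 2721 and 3397 with BMP4, 2385, 3616 and 4871 on arrays titled WNT3A and 4068, 4705 and 8540 on those titled BMP4+WNT3A. Every BMP4 array lay below every array without cytokine of the same line, and so did every array titled WNT3A, while the groups with WNT3A in WT and titled BMP4+WNT3A overlapped with their controls. With BMP4 Slc2a1 fell by 1.06 ± 0.20 in WT (limma, adjusted p = 0.00700) and by 1.36 ± 0.20 in KO (adjusted p = 0.00415), at all 3 times in each line. The 2 responses differed by -0.29 ± 0.28, which did not pass (adjusted p = 0.947). In KO with BMP4 none of the 11 streak markers passed the test, while the markers Dcn and Ascl2 did, as in WT. On KO arrays titled WNT3A Slc2a1 fell by 1.19 ± 0.20 (adjusted p = 0.00124), on those titled BMP4+WNT3A the difference was -0.54 ± 0.20 (adjusted p = 0.125), and over both it fell by 0.87 ± 0.17 (adjusted p = 0.00375).

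These Slc2a1 calls depended on the times. Without the 24 h arrays none passed, with -0.86 for BMP4 in WT (adjusted p = 0.282), -1.25 for BMP4 in KO (adjusted p = 0.529), -1.20 for titled WNT3A (adjusted p = 0.0837) and -0.80 for both WNT3A-containing groups (adjusted p = 0.148). Without the 12 h arrays the WT call also missed, at -0.93 (adjusted p = 0.0775), and so it did in a fit of only the arrays compared, at -1.06 (adjusted p = 0.0902). With time left out of the model the call for titled WNT3A held (adjusted p = 0.0388) and the others did not, with adjusted p = 0.158 for BMP4 in WT, 0.128 for BMP4 in KO and 0.0802 for both WNT3A-containing groups. Without the 3 arrays of highest Gapdh ratio all 4 held, with -1.30, -1.25, -1.08 and -0.76 in the same order.

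Slc2a3 encodes GLUT3, the high-affinity glucose transporter, and it rose with time in every condition. Its signal was 2304 in WT and 2557 in KO at 0 h, between 3169 and 5997 on the 7 arrays at 12 h, between 5833 and 8079 at 24 h and between 7486 and 9476 at 36 h. No 36 h array overlapped with a 12 h array. The KO arrays parted at 12 h, with 1 array each and no test. Their steps from 0 h were 0.41 without cytokine, 0.32 with BMP4, 1.17 titled WNT3A and 0.99 titled BMP4+WNT3A. In WT the steps were 0.94 without cytokine, 1.22 with BMP4 and 1.13 with WNT3A. From 12 to 36 h Slc2a3 rose by 0.81 ± 0.09 (n = 7 conditions, limma, adjusted p = 5.12e-06), by 0.53 to 1.36 in all 7. No cytokine or genotype comparison, each a mean over the times, called it. Slc2a1 rose by 0.65 ± 0.13 over the same interval (adjusted p = 0.00103), in 7 of 7 conditions, by 0.04 in WT without cytokine and in KO with BMP4. Over the 6 arrays without cytokine Slc2a3 still passed, at 1.10 (adjusted p = 0.0205), and Slc2a1 did not, at 0.21 (adjusted p = 0.307).

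**Figure D3:**
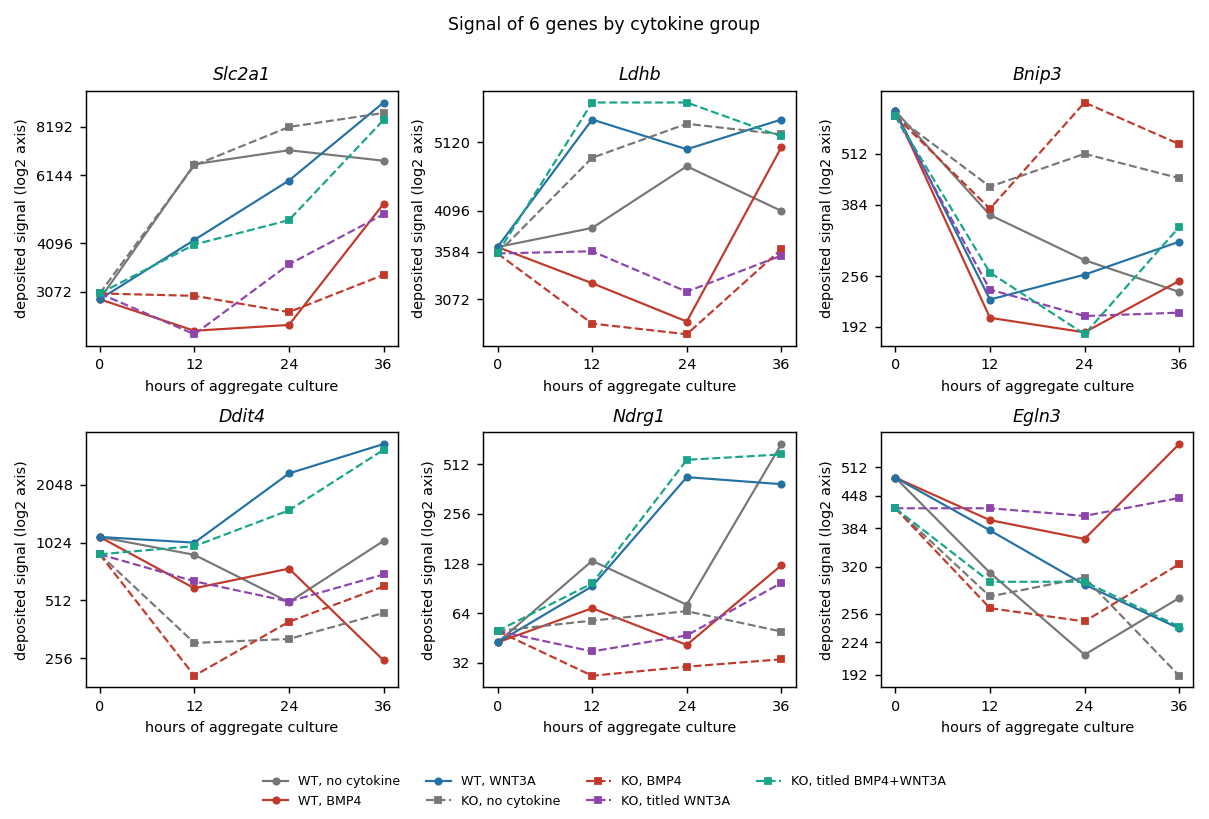
Each panel plots the deposited signal of 1 gene on a log2 axis against hours of aggregate culture, with 1 point per array, solid lines for WT and dashed lines for KO, and every line starting at the 0 h array of its genotype. The Slc2a1 line with BMP4 stays low in KO, and in WT it is low at 12 and 24 h and rises to 5185 at 36 h. The Ddit4 and Ndrg1 lines of KO titled BMP4+WNT3A run beside those of WT with WNT3A.

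The hexokinases commit glucose to the cell by phosphorylating it. Hk1 ranged from 512 to 1038 and was called in no comparison. Hk2, the inducible form, was higher in KO than in WT under BMP4. Its signal with BMP4 was 613, 815 and 750 in WT and 996, 1296 and 1333 in KO, and the groups did not overlap, while without cytokine it was 910, 904 and 1287 in WT and 744, 1209 and 1152 in KO, where they did. The difference with BMP4 was 0.69 ± 0.13 (adjusted p = 0.00528), and it missed the threshold without the 12 h arrays (0.71, adjusted p = 0.0557), without the 24 h arrays (0.75, adjusted p = 0.125) and in a fit of only the arrays compared (0.69, adjusted p = 0.0678). From 12 to 36 h Hk2 rose by 0.30 ± 0.09 (adjusted p = 0.0131), in 6 of 7 conditions with 0.00 in WT with BMP4, and this call was lost without the condition titled WNT3A (0.23, adjusted p = 0.0617).

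Phosphofructokinase makes the first step that belongs to glycolysis alone, and its 3 genes were called nowhere. Pfkl ranged from 2120 to 4804, Pfkm from 549 to 1010 and Pfkp from 372 to 662. The nearest to a call was Pfkp over time, at -0.22 ± 0.08 (adjusted p = 0.0527). The bifunctional enzymes that make and remove fructose 2,6-bisphosphate, the activator of phosphofructokinase, differed from each other. Pfkfb3, the form with the higher kinase activity, rose from 12 to 36 h by 0.80 ± 0.17 (adjusted p = 0.00125), in 6 of 7 conditions, and KO with BMP4 had -0.05. Its signal at 36 h was 365 in WT with WNT3A, 375 on the array titled BMP4+WNT3A and between 156 and 218 on the other 5. Over the 6 arrays without cytokine the difference was 0.45 (adjusted p = 0.167). Pfkfb4 ranged from 237 to 530 and was called nowhere.

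Among the enzymes of the lower pathway the calls were few and small. Tpi1, which interconverts the triose phosphates, fell by 0.26 ± 0.07 on KO arrays titled BMP4+WNT3A (adjusted p = 0.0392) and by 0.21 ± 0.06 over both WNT3A-containing groups (adjusted p = 0.0427). Pgam1, a phosphoglycerate mutase, fell by 0.17 ± 0.05 (adjusted p = 0.0441) and 0.16 ± 0.04 (adjusted p = 0.0183) in the same comparisons. Tpi1 read 6472, 7486 and 6985 in KO without cytokine, 6123, 6165 and 5595 on arrays titled BMP4+WNT3A and 6165, 6841 and 6165 on those titled WNT3A. The groups titled BMP4+WNT3A and without cytokine did not overlap for Tpi1, and the group titled WNT3A did overlap. For titled BMP4+WNT3A the calls of Tpi1 and of Pgam1 were each lost under 11 of 15 alternatives, and for both groups that of Tpi1 was lost under 9 of 14 and that of Pgam1 under 4 of 14. When the 3 arrays with the highest Gapdh ratio were left out the Tpi1 differences were -0.24 and -0.18. The control array at 24 h, which read 7486 for Tpi1, is 1 of these 3. Eno2, the neuronal enolase, was dim at 100 to 167 and fell by 0.28 ± 0.09 from 12 to 36 h (adjusted p = 0.0215). Pkm, the pyruvate kinase gene, fell by 0.11 ± 0.04 (adjusted p = 0.0203). The Pkm and Eno2 calls were lost on the values as deposited, at -0.09 (adjusted p = 0.0623) and -0.16 (adjusted p = 0.173), and each was lost when single conditions were left out. Aldoa, Aldoc, Gapdh, Pgk1 and Ldha were called in no comparison.

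Ldhb encodes the lactate dehydrogenase subunit of oxidative tissues, which favours the turn of lactate to pyruvate, and it was lower with BMP4 in KO. Its signal in KO was 4871, 5442 and 5257 without cytokine, 2837, 2740 and 3616 with BMP4, 3591, 3148 and 3541 on arrays titled WNT3A and 5833, 5833 and 5221 on those titled BMP4+WNT3A. The BMP4 group and the group titled WNT3A lay below the others without overlap. In WT it was 3875, 4738 and 4096 without cytokine, 3236, 2856 and 5043 with BMP4 and 5518, 5008 and 5518 with WNT3A, and the BMP4 array at 36 h lay above all 3 controls. Ldhb fell by 0.76 ± 0.14 with BMP4 in KO (adjusted p = 0.0173) and by 0.63 ± 0.14 on arrays titled WNT3A (adjusted p = 0.00790). Arrays titled BMP4+WNT3A exceeded those titled WNT3A by 0.70 ± 0.14 (adjusted p = 0.0366). In WT the difference with BMP4 was -0.20 ± 0.14, and the difference of -0.57 ± 0.19 between the lines did not pass (adjusted p = 0.636). All 3 Ldhb calls were lost when the 12 h arrays, the 24 h arrays or the 3 arrays with the highest Gapdh ratio were left out, where the value for BMP4 in KO was -0.76 (adjusted p = 0.261), -0.66 (adjusted p = 0.570) and -0.69 (adjusted p = 0.144). With the 6 labels exchanged the values change to 0.07 against KO without cytokine and -0.70 against the other group.

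Lactate leaves through the monocarboxylate transporters MCT1 (Slc16a1) and MCT4 (Slc16a3), and MCT4 is the exporter that HIF is known to raise. Slc16a3 fell from 12 to 36 h by 0.96 ± 0.27 (adjusted p = 0.00940), but not in every condition. It went from 1418 to 313 in WT with WNT3A, from 1409 to 512 in WT with BMP4, from 1046 to 284 on arrays titled BMP4+WNT3A and from 1687 to 1017 in WT without cytokine. In KO with BMP4 it went from 1278 to 2435 and in KO without cytokine from 1168 to 1305, so 5 of 7 conditions had the lower value at 36 h. Over the 6 arrays without cytokine the difference was -0.42 (adjusted p = 0.356), and without the 6 arrays of conflicting labels it was -0.81 (adjusted p = 0.0900). Slc16a1 rose by 0.25 ± 0.09 (adjusted p = 0.0353), in 6 of 7 conditions, and this call was lost when any of 4 single conditions was left out, with 0.22 each time.

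Pdk1 and Pdk3 encode kinases that switch off pyruvate dehydrogenase and so hold pyruvate back from the mitochondria. Pdk1 had the largest decrease over time among the members. Its signal was 2034 in WT and 1992 in KO at 0 h. At 12 h it read 1499, 969 and 1734 in WT without cytokine, with BMP4 and with WNT3A, and at 36 h 501, 226 and 452. In KO without cytokine, with BMP4, titled WNT3A and titled BMP4+WNT3A it read 949, 949, 996 and 1771 at 12 h and 282, 635, 662 and 639 at 36 h. Every 36 h array lay below every 12 h array. Pdk1 fell by 1.56 ± 0.20 (adjusted p = 2.20e-05), by 0.68 to 2.25 in 7 of 7 conditions. It kept this call under all 18 alternatives tried, with values from -1.75 to -0.98. At 12 h both arrays with the highest signal carry WNT3A, 1734 in WT and 1771 titled BMP4+WNT3A, but no cytokine comparison passed, and the nearest was 0.82 ± 0.26 over both WNT3A-containing groups (adjusted p = 0.0551). Pdk3 ranged from 942 to 1428 and was called nowhere, with 0.15 ± 0.06 over time (adjusted p = 0.0546).

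**Figure D4:**
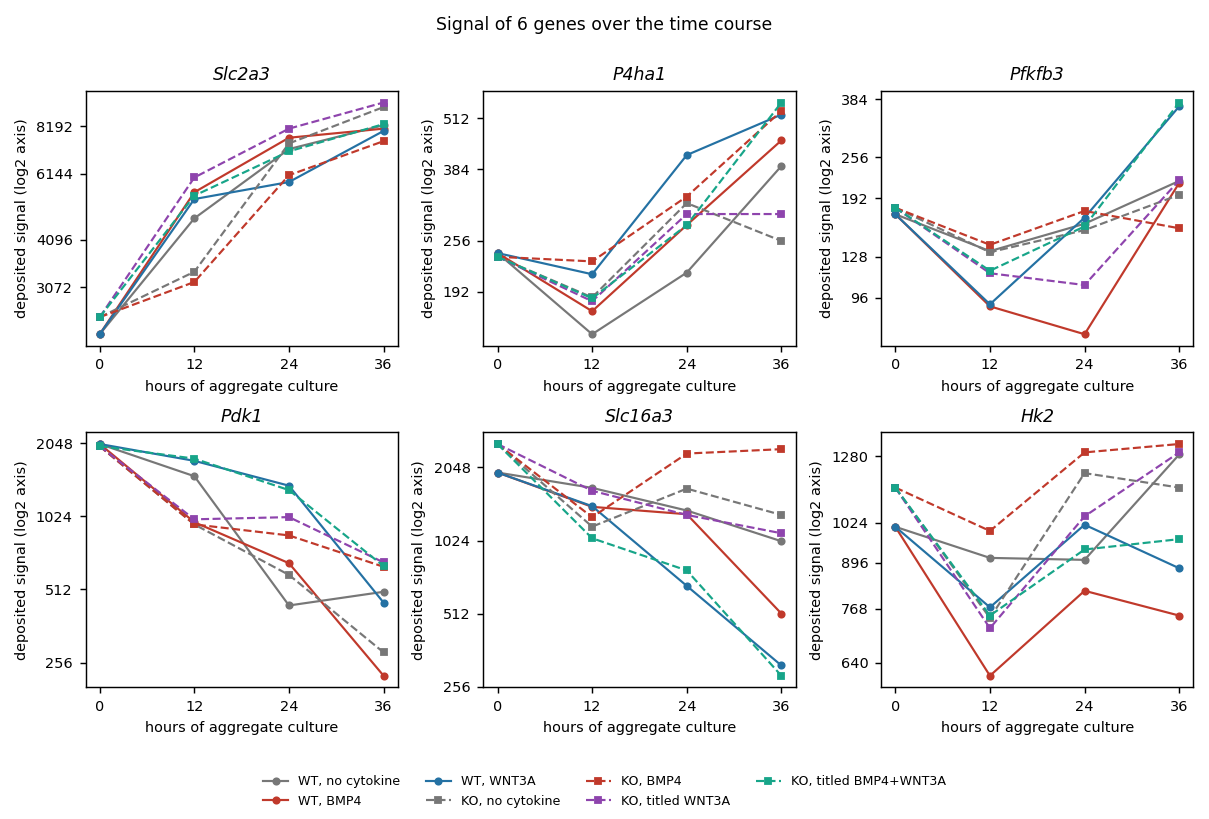
Each panel plots the deposited signal of 1 gene on a log2 axis against hours of aggregate culture, with 1 point per array, solid lines for WT and dashed lines for KO, and every line starting at the 0 h array of its genotype. All 7 lines of Slc2a3 rise and all 7 lines of Pdk1 end below their 12 h value, while the Slc16a3 lines part, with KO with BMP4 at 2435 and KO titled BMP4+WNT3A at 284 at 36 h.

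Egln1 and Egln3 encode the PHD2 and PHD3 prolyl hydroxylases, the oxygen sensors that act on HIF, and Egln3 is itself known as a HIF target. Egln1 ranged from 263 to 428 and was called nowhere. Egln3 was higher with BMP4 in WT, where it read 311, 211 and 276 without cytokine and 399, 365 and 572 with BMP4. In KO it read 278, 304 and 191 without cytokine, 263, 247 and 324 with BMP4, 422, 407 and 443 on arrays titled WNT3A and 298, 298 and 241 on those titled BMP4+WNT3A. The WT group with BMP4 and the KO group titled WNT3A stood above their controls without overlap, and the KO group with BMP4 did not. Egln3 rose by 0.71 ± 0.18 with BMP4 in WT (adjusted p = 0.0404) and by 0.68 ± 0.18 on arrays titled WNT3A (adjusted p = 0.0264), and with BMP4 KO was below WT by a difference of -0.69 ± 0.18 (adjusted p = 0.0289). The difference between the BMP4 responses, -0.63 ± 0.26, did not pass (adjusted p = 0.797). The WT call was lost under 12 of 15 alternatives, leaving out each time among them (0.58 to 0.87). The call of KO against WT was lost under 8 of 15, with values from -0.73 to -0.41. The call of titled WNT3A was lost under 5 of 15, among them leaving out any of the times, where the lowest value was 0.48 without the 36 h arrays (adjusted p = 0.0685), and it was 0.03 with the 6 labels exchanged (adjusted p = 0.946).

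Bnip3, a HIF target at the mitochondrial membrane that promotes mitophagy, separated cultures with and without a WNT signal in KO. It read 635 in KO and 653 in WT at 0 h. In KO it then read 425, 512 and 446 without cytokine, 375, 685 and 541 with BMP4, 237, 204 and 208 on arrays titled WNT3A and 261, 184 and 338 on those titled BMP4+WNT3A. All 6 WNT3A-containing arrays lay below all 6 others of KO at 12, 24 and 36 h. In WT it read 362, 280 and 234 without cytokine, 202, 186 and 249 with BMP4 and 224, 258 and 311 with WNT3A, with overlap between the groups. Over both WNT3A-containing groups Bnip3 fell by 0.98 ± 0.18 (adjusted p = 0.00206), by 1.05 ± 0.21 on arrays titled WNT3A (adjusted p = 0.00430) and by 0.90 ± 0.21 on those titled BMP4+WNT3A (adjusted p = 0.0149). With BMP4 it was higher in KO than in WT by 1.19 ± 0.21 (adjusted p = 0.00238), and without cytokine the difference was 0.64 ± 0.21 (adjusted p = 0.241). Without the 24 h arrays these values were -0.83 (adjusted p = 0.0895), -0.99 (adjusted p = 0.0924), -0.67 (adjusted p = 0.312) and 0.91 (adjusted p = 0.153). The call on arrays titled BMP4+WNT3A was also lost when the 12 h arrays (-0.95, adjusted p = 0.0532) or the 3 arrays of highest Gapdh ratio were left out (-0.82, adjusted p = 0.0653).

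Ddit4 encodes REDD1, an inhibitor of mTORC1 signalling raised by low oxygen and other stresses, and it was higher on KO arrays titled BMP4+WNT3A. Its signal in KO was 307, 322 and 440 without cytokine, 207, 396 and 605 with BMP4, 644, 505 and 699 on arrays titled WNT3A and 982, 1510 and 3126 on those titled BMP4+WNT3A. Both WNT3A-containing groups stood above the KO controls without overlap. In WT it was 885, 501 and 1046 without cytokine, 592, 750 and 249 with BMP4 and 1024, 2353 and 3350 with WNT3A, where the lowest WNT3A array lay below the highest control. Ddit4 rose by 2.16 ± 0.46 on arrays titled BMP4+WNT3A (adjusted p = 0.00949) and by 1.45 ± 0.40 over both WNT3A-containing groups (adjusted p = 0.0255). On arrays titled WNT3A alone the difference was 0.74 ± 0.46 and did not pass (adjusted p = 0.365), and in WT it was 1.34 ± 0.46 (adjusted p = 0.212). Without the 24 h arrays the values of the 2 calls were 2.12 (adjusted p = 0.235) and 1.44 (adjusted p = 0.243). Without the 3 arrays of highest Gapdh ratio they were 2.08 (adjusted p = 0.0664) and 1.37 (adjusted p = 0.149), and without the 12 h arrays the second was 1.58 (adjusted p = 0.0588). With the labels of the 6 arrays exchanged the first takes the value of the group titled WNT3A.

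Ndrg1, a stress-responsive gene that HIF is known to raise, had the widest range of the members, from 26.7 to 680. In KO it read 57.7, 65.8 and 49.5 without cytokine, 26.7, 30.3 and 33.6 with BMP4, 37.5, 46.9 and 97.7 on arrays titled WNT3A and 97.0, 545 and 588 on those titled BMP4+WNT3A. In WT it read 133, 72.0 and 680 without cytokine, 68.6, 41.1 and 125 with BMP4 and 93.1, 428 and 388 with WNT3A. The arrays titled BMP4+WNT3A lay above the KO controls without overlap, and the WT groups overlapped. Ndrg1 rose by 2.11 ± 0.56 on arrays titled BMP4+WNT3A (adjusted p = 0.0307), and from 12 to 36 h by 1.10 ± 0.36 (adjusted p = 0.0249), in 6 of 7 conditions with -0.21 in KO without cytokine. The first call was lost when the 24 h arrays (1.79, adjusted p = 0.241) or the 36 h arrays (1.66, adjusted p = 0.159) were left out, and in a fit of only the arrays compared (2.11, adjusted p = 0.133), and the value was -0.04 with the labels exchanged. The call over time was lost when the condition WT with WNT3A, titled BMP4+WNT3A or titled WNT3A was left out, with 0.99, 0.91 and 1.10. It was lost too when the 3 arrays of highest Gapdh ratio were left out, of which WT without cytokine at 36 h is 1 (0.85, adjusted p = 0.0605).

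P4ha1, a subunit of the collagen prolyl hydroxylase, rose from 12 to 36 h. Before that it was lower at 12 h than at 0 h in all 7 conditions, by differences from -0.67 to -0.08. It read between 151 and 228 on the 7 arrays at 12 h, between 214 and 416 at 24 h and between 256 and 560 at 36 h, and no 36 h array was as low as any at 12 h. The increase from 12 to 36 h was 0.91 ± 0.12 (adjusted p = 2.13e-05), between 0.29 and 1.34 in 7 of 7 conditions. Over the 6 arrays without cytokine it was 0.69 (adjusted p = 0.207). Vegfa, the angiogenic growth factor gene, was called nowhere at its low signal. For the called genes 30 of 30 values from other probe sets with a mean signal of at least 100 had the same sign, and 11 of 13 from dimmer ones did. The 2 exceptions are the second probe sets of P4ha1 and Pfkfb3 over time, with mean signals of 30 and 17.5 and differences of -0.04 and 0.00.

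The step from 0 h to 12 h has 1 array per line and no test. Without cytokine the signal of Slc2a1 went from 2937 to 6562 in WT and from 3040 to 6517 in KO, which is 1.10 and 1.09 on the log2 scale. It was the 1 of 30 members past 2-fold higher in both lines, and none was past 2-fold lower in both, where 0.302% and 0.400% of all genes were. With BMP4 the step of Slc2a1 was -0.22 in WT and 0.01 in KO, and with the arrays titled WNT3A it was -0.39. The median step without cytokine was -0.20 over the members in WT and -0.13 in KO, against 0.00 and 0.01 over all genes. Slc2a3 was higher at 12 h in all 7 conditions, by 0.32 to 1.22. Lower at 12 h in all 7 conditions were Hk2, Pfkm, Pfkp, Aldoa, Aldoc, Tpi1, Pgk1, Slc16a3, Pdk1, Pfkfb3, Bnip3, Vegfa, Egln3, Ddit4 and P4ha1. Of these Vegfa was too dim for its differences to be read. The differences were from -1.60 to -0.56 for Bnip3, -2.05 to -0.01 for Ddit4 and -1.36 to -0.23 for Slc16a3. They were from -0.90 to -0.37 for Pfkfb3, -0.77 to -0.21 for Hk2 and -0.67 to -0.08 for P4ha1. All conditions of a line share its 1 array at 0 h, so they are not independent, and how many of all genes did so was not counted.

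**Figure D5:**
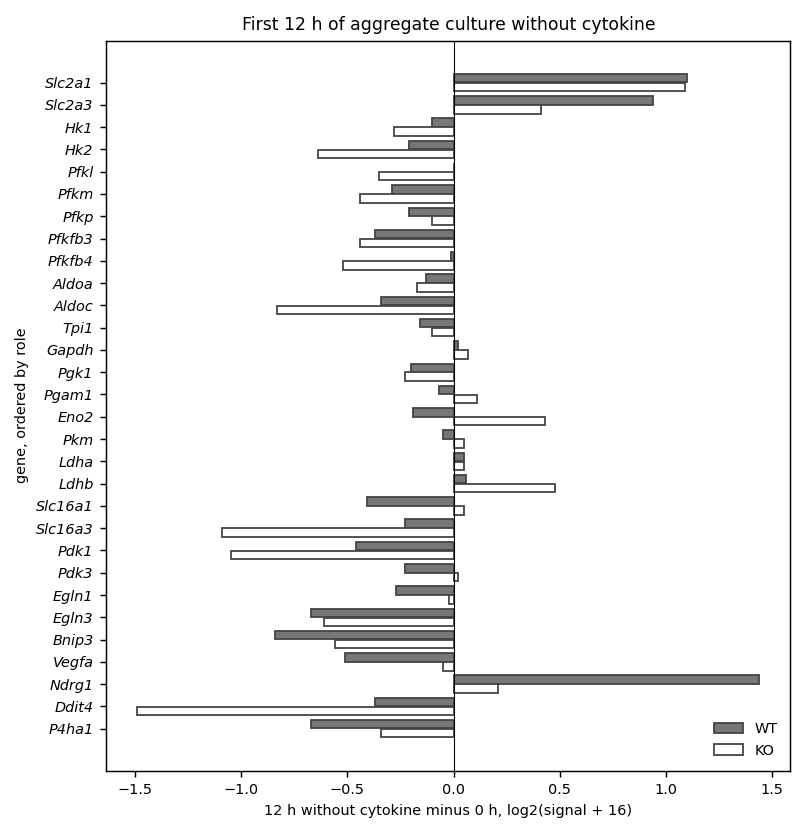
Bars show the difference between 12 h without cytokine and 0 h for each of the 30 genes on the log2(signal + 16) scale, filled for WT and open for KO, with 1 array per bar end and so no error. Slc2a1 stands at 1.10 and 1.09 and Ndrg1 at 1.44 in WT and 0.21 in KO, and most other bars lie below 0.

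Other genes of the HIF pathway gave mixed directions too. Of 34 tested genes of the HIF pathway and further hypoxia targets none was called with BMP4 in WT, WNT3A in WT or BMP4 in KO. In the mean of the WNT3A-containing groups of KO 4 were higher and 5 lower, where 4.95% and 6.63% of all genes were, with Ankrd37 at -0.96 ± 0.15 (adjusted p = 0.000659), the HIF-binding competitor gene Cited2 at 1.19 ± 0.35 (adjusted p = 0.0357) and the stress-induced repressor gene Bhlhe40 at 0.62 ± 0.18 (adjusted p = 0.0337). KO exceeded WT with BMP4 in 3 of them, Ankrd37 (0.92 ± 0.18), the oxidase gene Ero1a (0.58 ± 0.12) and the HIF partner gene Arnt2 (0.51 ± 0.10), and was below it in none. Over time 9 were higher and 2 lower, beside 17.9% and 20.8% of all genes, and the largest were Cited2 at 1.87 ± 0.26, Maff at 0.58 ± 0.08 and Plod1, which modifies collagen like P4ha1, at 0.57 ± 0.10. The median difference of the list was 0.07 in both WNT3A-containing groups and 0.04 over time, against -0.02 for all genes in each.

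At the entry of pyruvate into mitochondria the WNT3A-containing groups of KO were higher in Mpc1, a subunit of the mitochondrial pyruvate carrier, by 1.62 ± 0.25 (adjusted p = 0.000519), and in Pdha1, a subunit of pyruvate dehydrogenase, by 0.48 ± 0.07 (adjusted p = 0.000463). These were the 2 calls among 26 genes of pyruvate entry and the TCA cycle, where 4.95% of all genes were higher and 6.63% lower. The values were alike on arrays titled WNT3A (1.61 and 0.52) and titled BMP4+WNT3A (1.63 and 0.44). In WT 1 of the 26 was higher with BMP4 and none lower, beside 1.45% and 2.02% of all genes. With BMP4 Mpc1 was lower in KO than in WT, by a difference of -1.74 ± 0.29 (adjusted p = 0.00169), and Pdha1 by -0.29 ± 0.08 (adjusted p = 0.0499). Among 28 genes of the respiratory chain 2 were higher and none lower in the mean of the WNT3A-containing groups, beside 4.95% and 6.63% of all genes. They were Cox7a2 at 0.31 ± 0.10 and Atp5d at 0.20 ± 0.06. Taken alone, arrays titled WNT3A had 1 call, Atp5d, where 4.03% of all genes were higher. Those titled BMP4+WNT3A had none, where 3.04% were higher and 3.79% lower. Among 11 other glycolysis genes 1 call came with a cytokine, Pgm1 at -0.69 ± 0.20 on arrays titled BMP4+WNT3A (adjusted p = 0.0452), where 3.79% of all genes were lower. From 12 to 36 h Tigar of this list fell by 0.71 ± 0.10 (adjusted p = 4.74e-05), in 7 of 7 conditions. Pfkfb2 rose by 0.54 ± 0.13 (adjusted p = 0.00304) and Minpp1 by 0.25 ± 0.06 (adjusted p = 0.00262), and Pgm2 was also called higher. Over that interval 17.9% of all genes rose and 20.8% fell.

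Of 12 genes of the pentose phosphate pathway and of serine synthesis 8 fell from 12 to 36 h and none rose, where 20.8% of all genes fell and 17.9% rose. The lactonase gene Pgls had -0.89 ± 0.14, the isomerase gene Rpia -0.72 ± 0.09 and the serine phosphatase gene Psph -0.50 ± 0.07, each in 7 of 7 conditions. The median difference was -0.26, against -0.02 for all genes and -0.01 for the 30 members. With BMP4 Mthfd2 of this list was at -0.61 ± 0.12 in WT (adjusted p = 0.00935), and in KO -0.03 ± 0.12 did not pass. It was at -0.79 ± 0.12 on arrays titled WNT3A (adjusted p = 0.000566) and -0.51 ± 0.12 on those titled BMP4+WNT3A (adjusted p = 0.0171). With BMP4 it was higher in KO than in WT, by 0.67 ± 0.12 (adjusted p = 0.00277). Rpe was higher on arrays titled WNT3A, by 0.34 ± 0.11. In the TCA list 5 of 26 genes rose and 1 fell over time, and in the respiratory chain 6 of 28 rose and 5 fell. The share of TCA genes that fell was below the 20.8% of all genes, and the other shares were near those of all genes. Of 16 genes of the ATF4 and endoplasmic reticulum stress response, which is also known to raise Ddit4, 5 rose and 3 fell over time. On arrays titled WNT3A 1 of them was higher, Sesn2 at 0.86 ± 0.17 (adjusted p = 0.00369), where 4.03% of all genes were. On arrays titled BMP4+WNT3A 2 were higher, Atf3 at 0.89 ± 0.24 (adjusted p = 0.0365) and Atf5 at 0.37 ± 0.10 (adjusted p = 0.0301). There 3.04% of all genes were higher, and Sesn2 was at 0.23 ± 0.17 (adjusted p = 0.480). With BMP4 1 of the 16 was lower in each line and none higher, where 2.02% of all genes were lower in WT and 0.324% in KO. These counts are too small to read against their background.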

How the data were processed

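RNA of each culture was amplified as cDNA and hybridised to 1 Affymetrix mouse expression array, per the labels' protocols. The authors deposited linear intensity values, 1 per probe set and array, with a floor of 1 that held 2.93% of values, and the sources used here do not give the normalization method. Array medians were between 36.8 and 41.4 and upper quartiles between 226 and 292. Because the upper quartiles differed by 0.37 on the log2 scale, over a limit of 0.2, log2(value + 16) was quantile-normalized. Of 45101 probe sets 34958 name 1 gene in the platform annotation, 932 several and 9211 none. Groups followed the sample titles. The 21 arrays at 12, 24 and 36 h entered 1 model in limma 3.58.1 (R 4.3.3, lmFit and eBayes with an intensity trend), with terms for 7 conditions and for time and with 12 residual degrees of freedom. The steps were tested on simulated data. The 0 h arrays have no test. In each comparison at most 6 rising and 6 falling members with the largest called differences, and at most 3 genes of each other list, are described with full statistics, and other members by values. The members, gene lists and comparisons were chosen with earlier results of these data known, and the comparison of the 2 groups with conflicting titles was added after seeing the data, as was a fit without time. Alternatives were other scalings, offsets, filters, probe set choices, array weights, smaller fits, left-out times, conditions and arrays, and exchanged labels.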

Additional observations from a re-analysis of the deposited data

Results flagged for a closer look

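For 2 of 30 members every WT value moved one way with BMP4 and every KO value the other way. How many of all genes did so was not counted, so the 2 cannot be read against a background. Hk2 with BMP4 differed from the array without cytokine by -0.81 to -0.10 over the 3 times in WT and by 0.14 to 0.43 in KO, and the difference between the responses was 0.70 ± 0.19 (limma, adjusted p = 0.399, unadjusted p = 0.00191). Slc16a3 differed by -1.02 to -0.03 in WT and by 0.13 to 0.86 in KO, with a difference of 0.93 ± 0.57 (limma, adjusted p = 0.897, unadjusted p = 0.126). Neither difference passed the threshold.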

How the results depend on the processing

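Of 523 values of the 33 calls under the alternatives, 378 kept direction and call, 142 lost the call and 3 reversed, and 2 calls held under every alternative tried, Pdk1 and Slc2a3 over time. The number of members called with BMP4 in WT, 2, became 1 on values as deposited, with no filter, with the mean of all probe sets, with array weights, when the 3 arrays of highest Gapdh ratio or the 6 of conflicting labels were left out, became 0 with only the arrays compared, and was 0 to 1 when times were left out. With BMP4 in KO, 2 became 5 with only the arrays compared, 1 without the 3 or the 6 arrays, and 0 to 2 over left-out times. For titled WNT3A, 4 became 9 with array weights and 0 to 4 over left-out times. For titled BMP4+WNT3A, 5 became 3 with median centring, no filter or the mean of probe sets, 9 with array weights, 2 with only the arrays compared, 1 without the 3 arrays and 0 to 3 over left-out times. For both WNT3A-containing groups, 5 became 10 with array weights, 8 with only the arrays compared, 2 without the 3 arrays and 0 to 5 over left-out times. For KO against WT with BMP4, 3 became 5 with array weights, 0 with only the arrays compared and 0 to 5 over left-out times. For titled BMP4+WNT3A against titled WNT3A, 1 became 0 with median centring, no filter, the mean of probe sets or without the 3 arrays, 4 with array weights and 0 to 1 over left-out times. With WNT3A in WT, 0 became 1 without the 36 h arrays. Over time, 11 became 2 over the 6 arrays without cytokine, 6 without the 6 arrays and 8 to 15 when single conditions were left out. KO against WT without cytokine and the difference of the BMP4 responses stayed at 0 under all alternatives tried. Exchanging the 6 labels turned Ldhb for titled WNT3A to 0.07, Ndrg1 for titled BMP4+WNT3A to -0.04 and Ldhb between both groups to -0.70, since the groups change places. Smaller fits hold fewer arrays, and otherwise the cause of these changes was not tested. A replicate number here is a time, so the model with time as a block is the paired one. With no replicate block, a fit chosen after seeing the data, the differences stay the same and the members called were 0 with BMP4 in WT, 1 with BMP4 in KO, 3 for titled WNT3A, 2 for titled BMP4+WNT3A, 1 for both WNT3A-containing groups, 1 for KO against WT with BMP4 and 0 for titled BMP4+WNT3A against titled WNT3A. With 1 array per condition and time the number of arrays limits the precision, and Vegfa was too dim for its differences to be read.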
